A study of Mus musculus with 6 samples.

Results

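The autophagy and mitophagy machinery was examined as 41 named genes in hind leg muscle of mice with and without treadmill training. Members were taken as the rows of the gene table whose symbol was on the list, and all 41 were found among its 16759 genes. Every member had a mean of at least 1 FPKM (read fragments scaled to gene length and library size), the limit that left 10883 genes for testing. The genes covered initiation of the autophagosome (10 genes), supply of its membrane (5), the enzymes that conjugate LC3 to lipid (10), the LC3 and GABARAP proteins themselves (5), cargo receptors (3), mitophagy (4), transcription factors (2) and lysosomal membrane proteins (2).

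RNA was sequenced from the muscles of male C57BL/6J mice, 8 weeks old at the start, with 1 library per sample. The control group (Con, n = 3) had no treadmill training. The exercise group (EX, n = 3) ran at moderate intensity for 60 min per day on 5 days per week over 6 weeks, covered 22 km per mouse, and was killed 24 h after the last session. No transgene or deletion is named for either group, muscle was taken after perfusion with phosphate-buffered saline, and fat between the muscles was removed. The sources name hind leg muscles, and which muscle or muscles the RNA of each library came from is not stated. The samples hold 1 time point after 1 training programme.

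Autophagy encloses cytoplasm in a double membrane and delivers it to the lysosome. The ULK1 complex starts the process, a phosphatidylinositol 3-kinase complex marks the membrane, and a ubiquitin-like conjugation system attaches LC3 and GABARAP proteins to it, where they bind cargo receptors such as p62. Mitophagy is the branch that removes mitochondria, through PINK1 and ubiquitin or through receptors on the outer mitochondrial membrane, and skeletal muscle is known for its use of both during contraction, fasting and training.

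Promoter sequences are shown for the members that passed the test described next, because these are the genes on which the comparison turns. RefSeq promoters (GRCm38.p6, 250 bases before to 50 after the start) were matched by gene ID for 34 of the 41 members. No entry was matched for Rb1cc1, Becn1, Pik3c3, Atg12, Atg16l1, Map1lc3a and Bnip3l. The 100 bases before the start are printed 5′ to 3′ in the direction of the gene, with capitals marking the GC box GGGCGG and the ETS motif CCGGAAG, each searched on both strands.
Ulk1, chr5:110810082-110810181, minus strand: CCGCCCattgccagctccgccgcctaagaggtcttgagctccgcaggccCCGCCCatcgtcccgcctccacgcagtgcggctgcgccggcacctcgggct
Atg101, chr15:101284201-101284300, plus strand: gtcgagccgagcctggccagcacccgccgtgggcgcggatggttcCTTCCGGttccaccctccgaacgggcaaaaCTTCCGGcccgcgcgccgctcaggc
Wipi1, chr11:109611390-109611489, minus strand: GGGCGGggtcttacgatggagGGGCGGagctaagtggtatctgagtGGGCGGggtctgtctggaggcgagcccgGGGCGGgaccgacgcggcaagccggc
Gabarapl1, chr6:129533092-129533191, plus strand: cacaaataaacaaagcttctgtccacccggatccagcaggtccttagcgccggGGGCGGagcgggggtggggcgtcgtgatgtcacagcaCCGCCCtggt
Optn, chr2:5064118-5064217, minus strand: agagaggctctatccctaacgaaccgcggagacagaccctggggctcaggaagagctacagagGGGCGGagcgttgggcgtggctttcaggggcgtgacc
Pink1, chr4:138326297-138326396, minus strand: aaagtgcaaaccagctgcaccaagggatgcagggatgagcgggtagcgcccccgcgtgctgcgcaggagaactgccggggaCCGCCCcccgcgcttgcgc

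The GC box was in the promoters of 23 of the 34 matched members (67.6%), against 38.2% of the 27025 genes with a promoter, and the 5 genes that were lower in EX all had it. The ETS motif was in 3 of the 34 (8.82%: Atg101, Atg3 and Gabarapl2) against 9.93% of all genes. The E-box CACGTG, whose extended form GTCACGTG contains it and is bound by TFEB and TFE3, was in 6 members (17.6%: Atg14, Atg3, Atg5, Atg7, Bnip3 and Lamp1) against 8.09%, and the extended form was in 4 (11.8%) against 2.55%. The forkhead motif GTAAACA was in none of the 34 and in 4.05% of all genes. These matches describe letters in a window and were not tested against expression. The promoters with the most E-boxes are shown because Tfeb and Tfe3 are members, with capitals marking CACGTG, of which Lamp1 has 4 and Atg3 has 2 in these 100 bases.
Lamp1, chr8:13159061-13159160, plus strand: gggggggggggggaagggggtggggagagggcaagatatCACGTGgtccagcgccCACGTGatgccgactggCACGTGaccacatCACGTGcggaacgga
Atg3, chr16:45158729-45158828, plus strand: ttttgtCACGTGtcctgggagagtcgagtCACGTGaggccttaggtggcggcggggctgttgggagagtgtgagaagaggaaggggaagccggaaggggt

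Of the 41 members, 7 passed the test, with small changes, and 34 did not. Map1lc3a and Atg101 were higher in EX, and Ulk1, Wipi1, Gabarapl1, Optn and Pink1 were lower (edgeR quasi-likelihood test, Benjamini-Hochberg adjusted p under 0.05 over 10883 genes). The 2 higher members were 4.88% of the 41, where 9.11% of all tested genes were called higher, and the 5 lower members were 12.2%, where 8.8% of all genes were called lower. In either direction 7 of 41 (17.1%) were called against a background of 17.9%. The share of called members was therefore close to that of all genes. The median log2 fold change (EX against Con) of the members was -0.02 and that of all tested genes was -0.00. In size alone, the median absolute log2 change was 0.07 for the members, 0.10 for all tested genes, 0.16 for the called members and 0.25 for all called genes.

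**Figure D1:**
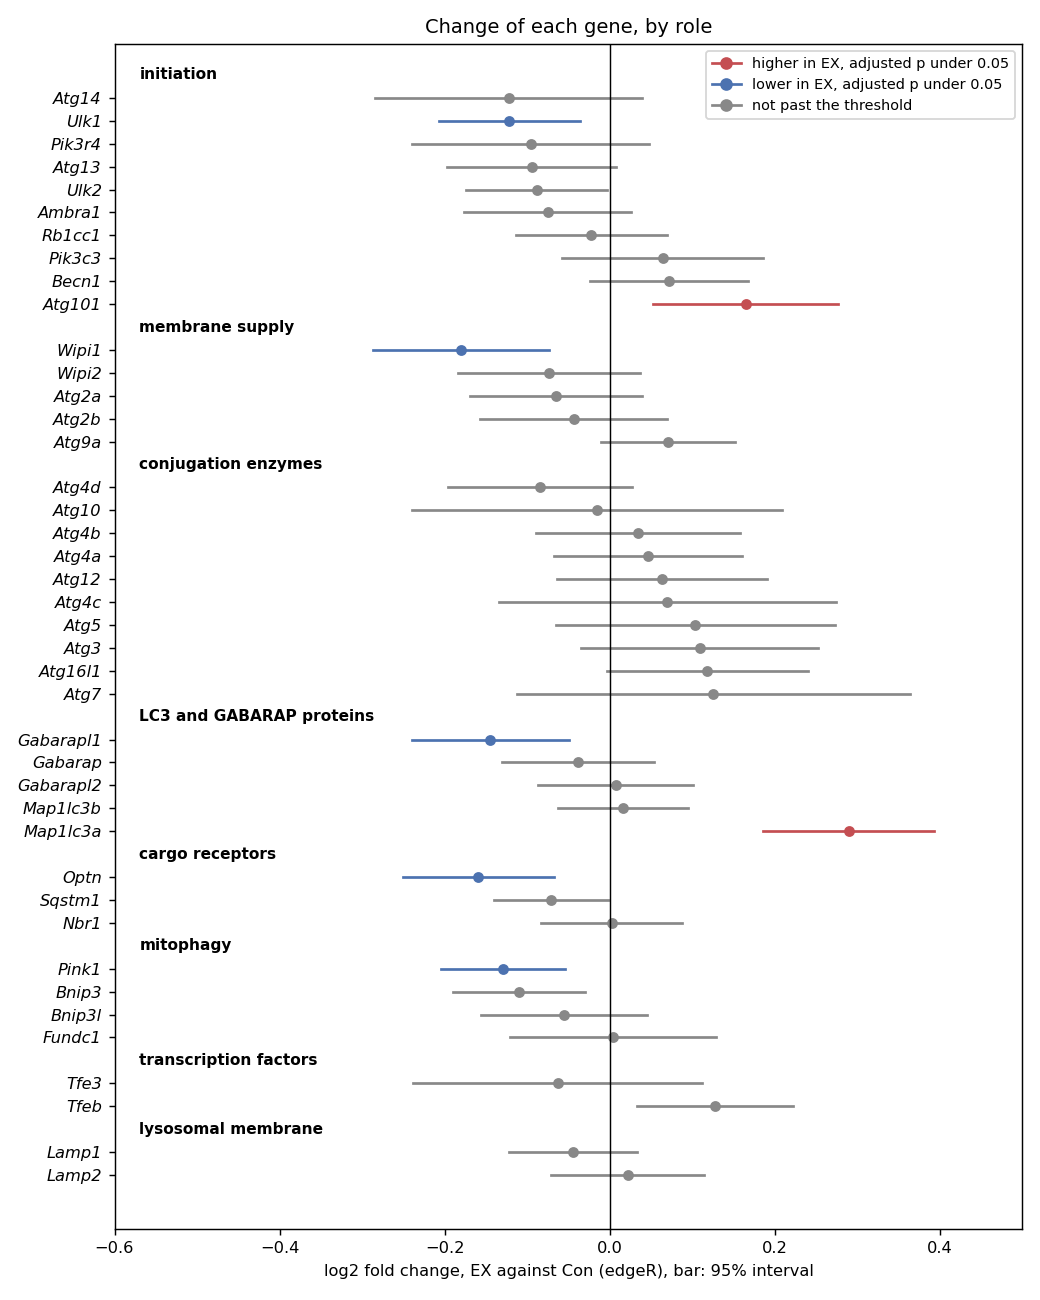
Log2 fold change of each of the 41 genes (EX against Con, x axis) from edgeR with its 95% interval, grouped by role on the y axis, with called genes coloured. Map1lc3a lay farthest from 0 at 0.29, the 10 conjugation enzymes all had intervals crossing 0, and 34 genes were not past the threshold.

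The 34 members that did not pass had log2 fold changes from -0.12 to 0.13, with 95% intervals that lay within -0.28 and 0.36 and adjusted p from 0.051 to 0.979. The outer bounds came from Atg14 and Atg7, and most genes had narrower intervals, such as -0.14 to -0.00 for Sqstm1. Not passing does not show that a gene was at the same level in both groups. By ranges of the libraries, EX lay wholly above Con for 5 members and wholly below for 11, against 16.7% and 16.9% of all tested genes. The other 25 overlapped. None of the 7 called members overlapped.

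The libraries held 13845362 to 16240431 counts, and the groups separated on the first principal component (55.8% of the variance). Con replicate 1 differed most from its group, with a chi-square per degree of freedom of 3.44 and 4.19 against the other Con libraries, where other replicate pairs had 1.79 to 2.36. Without it, 2 members were higher and 4 lower. Fibre markers were abundant in every library (8 of 8 tested, summed CPM, counts scaled to library size, of 153336 to 161354 in Con and 165232 to 174077 in EX), and 3 of them were higher in EX. Markers of other cells and fibre types also differed between Con and EX, and which muscle each library came from is not stated. Slow fibre markers were higher for 9 of 9 tested (summed CPM 173.2 to 181.0 in Con, 450.3 to 478.8 in EX), macrophage markers for 6 of 7 (45.2 to 50.0 and 80.3 to 88.1) and tendon markers for 5 of 8 (441 to 456 and 675 to 708). Schwann cell markers were lower for 4 of 5 (113 to 125 and 86.0 to 89.1) and endothelial markers for 5 of 10, with 1 higher (826 to 841 and 731 to 750). Fast fibre markers were higher for 8 and lower for 1 of 11 (155062 to 155950 and 166833 to 173064). Regenerating fibre markers were higher for 3 of 5 (552 to 611 and 1644 to 1743) and fibroblast markers for 2 of 8 (1356 to 1413 and 1536 to 1539). Red blood cell markers were higher for 1 of 5 (241 to 265 and 263 to 290). Adipocyte markers were higher for 5 and lower for 1 of 7, with overlapping sums (1110 to 1166 and 1117 to 1118). Of all tested genes, 9.11% were higher and 8.8% lower. None of the listed markers was at 0 in all libraries. The part of these cell types in the changes below was not tested, and in bulk muscle fewer cells of a type and less RNA per cell cannot be told apart.

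**Figure D2:**
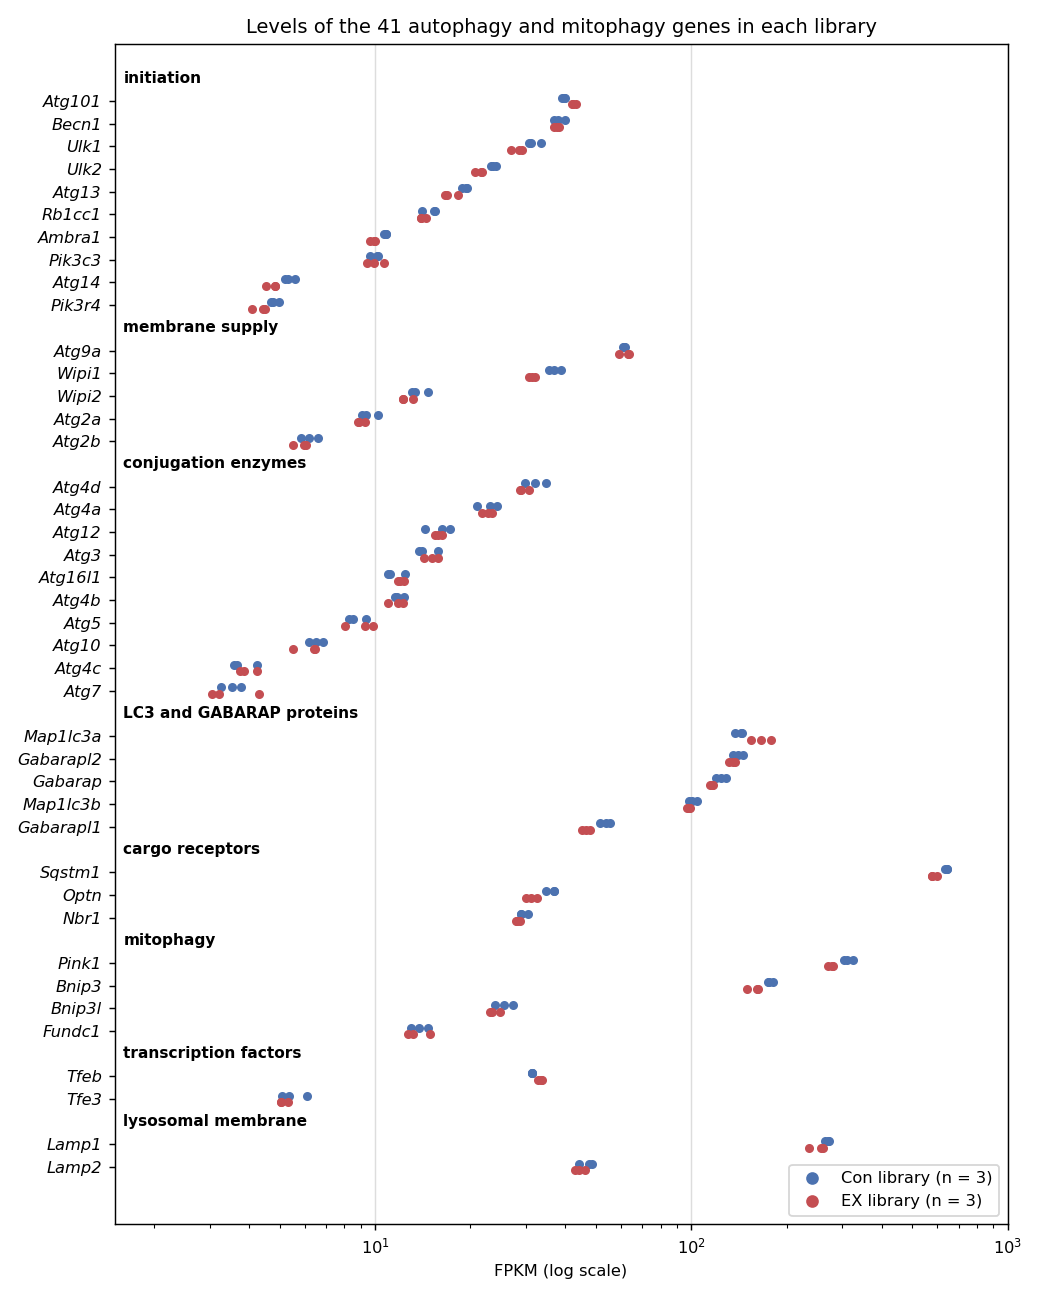
FPKM of each of the 41 genes in the 3 Con and 3 EX libraries (log x axis, 1 point per library), grouped by role and ordered by mean level on the y axis. Sqstm1, Pink1 and Lamp1 were the most abundant, Atg7 was the lowest, and the Con and EX points of most genes lay side by side.

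Levels per length differed far more between genes than between groups. Mean FPKM over the 6 libraries ran from 3.52 for Atg7, the enzyme that activates LC3, to 611 for Sqstm1, the p62 cargo receptor, with a median of 22.7. Behind Sqstm1 came the mitophagy kinase Pink1 at 295 FPKM, the lysosomal membrane protein Lamp1 at 260, the mitochondrial receptor Bnip3 at 168 and Map1lc3a at 154. Those top 3 genes held 45.1% to 47.1% of the summed FPKM of all 41, and Sqstm1 alone 23.4% to 24.7%. That sum was 2625, 2607 and 2586 FPKM in the Con libraries and 2444, 2436 and 2468 in the EX libraries. It was lower in every EX library, on a scale on which the median gene also shifted, by -0.06 in log2. The depth behind the members was high: the lowest count of any member in any library was 113, for Atg10. Within a group the coefficient of variation of a member's CPM had a median of 4.19% in Con and 3.43% in EX, and the widest was 16.7%, for Atg7 in EX.

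Among the 10 initiation genes, 1 was higher, 1 was lower and 8 did not pass, with a median log2 change of -0.08. Beside this and the counts of the other roles stand 9.11% of all tested genes called higher and 8.8% called lower. Ulk1 (gene ID 22241) encodes the kinase that starts autophagy and that AMPK and mTORC1 regulate. Its level was 149.0, 145.2 and 155.6 CPM in Con and 140.5, 132.9 and 140.1 CPM in EX. Every EX library was below every Con library, though by little. The mean was 149.9 ± 5.25 CPM in Con and 137.8 ± 4.31 in EX (SD, n = 3 each), a log2 fold change of -0.12 (SE 0.04, adjusted p 0.0433). The call was lost without Con replicate 3 (adjusted p 0.167) and without EX replicate 1 (0.0567), 2 (0.196) or 3 (0.0862).

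Atg101 (gene ID 68118), a small subunit that stabilises ATG13 in the same complex, moved the other way. Its level was 35.9, 34.8 and 34.7 CPM in Con and 38.3, 39.6 and 40.2 CPM in EX, so the groups did not overlap. It rose from 35.1 ± 0.646 to 39.4 ± 0.938 CPM (log2 fold change 0.16, SE 0.05, adjusted p 0.035). Per length it was also the most abundant initiation gene, at 39.0 to 43.3 FPKM. The call was lost without Con replicate 2 (adjusted p 0.109) or 3 (0.0979) and without EX replicate 2 (0.0914) or 3 (0.131), and it passed under 3 of 16 alternative settings.

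The other ULK complex genes did not pass. Ulk2, the paralogue of Ulk1, had a log2 fold change of -0.09 (adjusted p 0.144) and Atg13, the adaptor, one of -0.09 (0.200), while Rb1cc1, which encodes the scaffold FIP200, had one of -0.02 (0.783). Members of the phosphatidylinositol 3-kinase complex did not pass either: the catalytic subunit Pik3c3 had 0.06, its regulator Becn1 0.07, the autophagy-specific subunit Atg14 -0.12, the scaffold Pik3r4 -0.10 and the Beclin partner Ambra1 -0.08, with adjusted p between 0.312 and 0.505. Atg14 had the same fold change as Ulk1 on this scale, but a standard error of 0.08 against 0.04, at a level of 14.4 to 17.3 CPM.

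**Figure D3:**
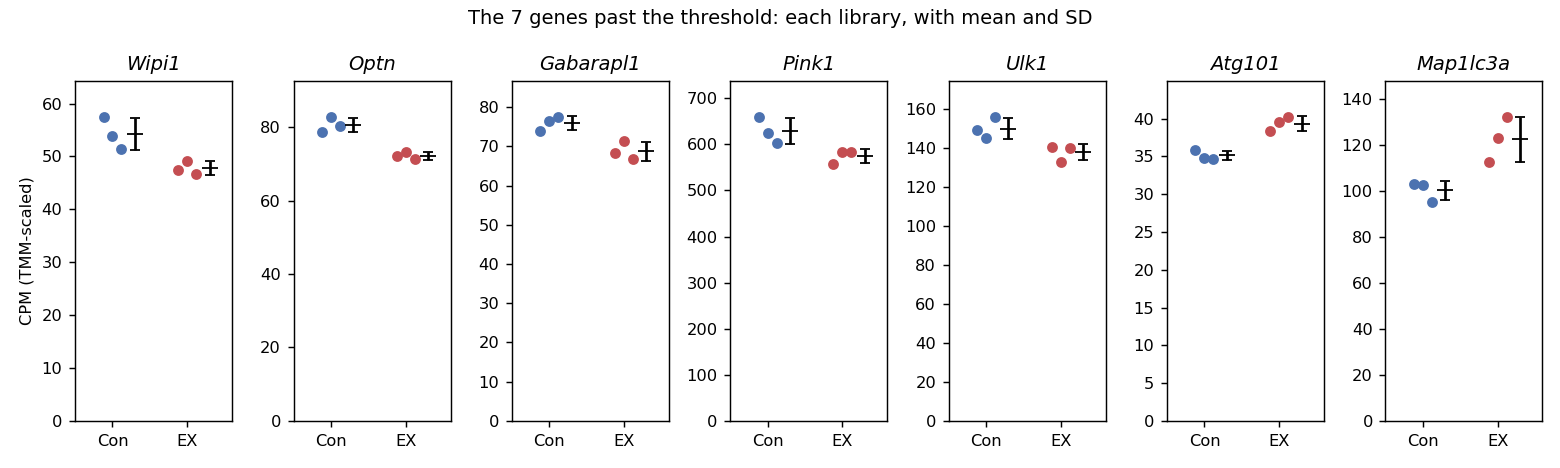
CPM after TMM scaling (y axis, from 0) of the 7 called genes in each Con and EX library, with the group mean and SD beside the points. The points of Con and EX did not overlap for any of the 7, and in percent Map1lc3a changed most, with an EX mean 22.2% above that of Con.

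Of the 5 genes that supply membrane and lipid to the growing autophagosome, 1 was lower and 4 did not pass (median -0.07). Wipi1 (gene ID 52639) binds phosphatidylinositol 3-phosphate on the forming membrane. Its level was 57.4, 53.8 and 51.5 CPM in Con and 47.4, 49.2 and 46.7 CPM in EX. The EX libraries were all below the lowest Con library. Wipi1 fell from 54.2 ± 2.97 to 47.8 ± 1.30 CPM (log2 fold change -0.18, SE 0.05, adjusted p 0.015), the largest decrease among the members. Without Con replicate 1 (adjusted p 0.0624) or EX replicate 3 (0.0807) it did not pass. Its paralogue Wipi2, which recruits the ATG16L1 complex, had a log2 fold change of -0.07 (adjusted p 0.384). Atg9a, a lipid scramblase carried on vesicles, had the highest level of the group at 61.6 FPKM, with 216.4, 211.3 and 209.2 CPM in Con and 211.7, 228.4 and 228.8 CPM in EX. These ranges overlapped (log2 fold change 0.07, adjusted p 0.234). The lipid transfer proteins Atg2a and Atg2b had -0.07 and -0.04 and did not pass.

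None of the 10 conjugation enzymes passed, where 17.9% of all tested genes were called in either direction. With 10 genes, this count of 0 was not read as a result about the enzymes. The edgeR count was 0 at the adjusted threshold and 0 at an unadjusted p under 0.05, and DESeq2, limma on FPKM and limma on TPM (transcript levels scaled to length and to a fixed library total) also called 0. Their log2 fold changes ran from -0.08 for the protease Atg4d to 0.13 for Atg7, with 95% intervals within -0.24 and 0.36. In edgeR 8 of the 10 were above 0 (median 0.07), while on FPKM 4 were (median -0.01), a scale on which the median of all genes was -0.06. Taken relative to the median of all genes, 8 of the 10 were above 0 in edgeR, on FPKM and on TPM, with medians of 0.07, 0.05 and 0.05. Atg4d, one of the proteases that trim LC3 and release it from lipid, had the highest level at 30.8 FPKM. It was at 54.4 to 63.2 CPM in Con and 52.9 to 56.7 CPM in EX, which overlap (adjusted p 0.308). Atg16l1, which places the conjugation machinery on the membrane, was the nearest to the threshold (log2 fold change 0.12, adjusted p 0.177). Its 34.4, 34.6 and 35.7 CPM in EX lay above the 31.5, 30.7 and 34.2 CPM in Con. Its partners Atg5 and Atg12 had 0.10 and 0.06, the E2-like enzymes Atg3 and Atg10 had 0.11 and -0.02, and the proteases Atg4a, Atg4b and Atg4c had 0.05, 0.03 and 0.07.

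The LC3 and GABARAP proteins, which are the products attached to the membrane, were where the largest change lay. Of the 5 genes, 1 was higher, 1 was lower and 3 did not pass. Map1lc3a (gene ID 66734) encodes LC3A, one of the LC3 proteins that bind cargo receptors. Its level was 102.9, 102.5 and 95.4 CPM in Con and 112.4, 123.1 and 131.9 CPM in EX. The lowest EX library was above the highest Con library, and the EX libraries were more spread than those of Con. It rose from 100.3 ± 4.23 to 122.5 ± 9.78 CPM, by 22.2% (log2 fold change 0.29, 95% interval 0.19 to 0.39, SE 0.05, adjusted p 1.2e-04). The call held without each library in turn and under 15 of 16 alternative settings, with fold changes from 0.19 to 0.35.

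Gabarapl1 (gene ID 57436), the GABARAP paralogue also called GEC1, moved in the opposite direction. Its level was 73.9, 76.6 and 77.4 CPM in Con and 68.2, 71.3 and 66.7 CPM in EX. All EX libraries were below all Con libraries. It fell from 76.0 ± 1.81 to 68.8 ± 2.36 CPM (log2 fold change -0.14, SE 0.05, adjusted p 0.0287). It did not pass without Con replicate 2 (adjusted p 0.0846) or 3 (0.083), nor without EX replicate 1 (0.0763) or 3 (0.149).

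The remaining 3 genes of the family were close to 0. Map1lc3b, which encodes the LC3 form most used as an autophagosome marker, was at 220.5, 205.5 and 208.8 CPM in Con and 214.0, 212.9 and 214.7 CPM in EX (log2 fold change 0.02, 95% interval -0.06 to 0.10). Gabarap had -0.04 (-0.13 to 0.05) and Gabarapl2, or GATE-16, had 0.01 (-0.09 to 0.10). On the FPKM scale, where genes can be set against each other, Map1lc3a held 25.3 ± 0.483% of the family's summed FPKM in Con and 29.6 ± 1.40% in EX. Gabarapl2 held 25.0 ± 0.761% and 24.0 ± 0.212%, Gabarap 22.2 ± 0.725% and 20.7 ± 0.460%, Map1lc3b 18.0 ± 0.457% and 17.5 ± 0.533%, and Gabarapl1 9.54 ± 0.467% and 8.28 ± 0.397%. Map1lc3a and Gabarapl2 thus had like shares in Con, and Map1lc3a had the highest share in each EX library. Shares of a fixed sum are tied to each other, so a higher share of Map1lc3a lowers the rest.

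Cargo receptors link ubiquitinated material to LC3, and of the 3 genes 1 was lower. Optn (gene ID 71648) encodes optineurin, a receptor for ubiquitinated mitochondria and bacteria. Its level was 78.7, 82.6 and 80.3 CPM in Con and 72.1, 73.2 and 71.2 CPM in EX. The 2 sets were well apart, and the spread within each was small. Optn fell from 80.5 ± 1.99 to 72.2 ± 0.988 CPM (log2 fold change -0.16, SE 0.04, adjusted p 0.0125). Without Con replicate 2 (adjusted p 0.0678) or EX replicate 3 (0.0667) it did not pass. Sqstm1, the most abundant member, was at 1077, 1071 and 1038 CPM in Con and 989.5, 1045 and 998.1 CPM in EX. EX replicate 2 lay within the Con range (log2 fold change -0.07, SE 0.03, adjusted p 0.151). On FPKM it passed as lower (limma, log2 fold change -0.13), a scale on which the median of all genes was -0.06. Its 577.1, 598.1 and 576.7 FPKM in EX lay below 641.2, 643.7 and 631.8 in Con. Nbr1, a receptor related to p62, had a log2 fold change of 0.00 (95% interval -0.08 to 0.09).

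Of the 4 mitophagy genes, 1 was lower and 3 did not pass (median -0.08). Pink1 (gene ID 68943) encodes the kinase that builds up on damaged mitochondria and marks them for removal. Its level was 658.5, 623.9 and 603.3 CPM in Con and 557.6, 583.7 and 582.5 CPM in EX. The highest EX library was below the lowest Con library. Pink1 fell from 628.6 ± 27.9 to 574.6 ± 14.8 CPM (log2 fold change -0.13, SE 0.04, adjusted p 0.0138). The call passed under 15 of 16 alternatives and was lost without EX replicate 1 (adjusted p 0.0829). Bnip3, a receptor on the outer mitochondrial membrane induced by hypoxia and FoxO3, was at 257.6, 246.3 and 243.4 CPM in Con and 235.3, 220.9 and 236.0 CPM in EX. Its ranges did not overlap, and it lay just outside the threshold (log2 fold change -0.11, SE 0.04, adjusted p 0.051). It passed as lower under 6 of 16 alternatives, among them limma on FPKM, where the median of all genes was -0.06. Its homologue Bnip3l, also called NIX, had -0.06 (95% interval -0.16 to 0.04), and the hypoxia receptor Fundc1 had 0.00 (-0.12 to 0.13).

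Neither transcription factor of the autophagy and lysosome genes passed in edgeR, with 1 of the 2 higher at an unadjusted p under 0.05 and 0 called by DESeq2, limma on FPKM or limma on TPM. Tfeb, the factor that moves to the nucleus when mTORC1 is inactive, was at 62.3, 63.1 and 62.0 CPM in Con and 68.0, 70.1 and 66.6 CPM in EX. Its EX libraries lay wholly above Con, but the test fell short (log2 fold change 0.13, SE 0.05, adjusted p 0.055), and it passed under 0 of 16 alternatives. Tfe3 was the lower of the pair per length at 5.32 FPKM, against 32.3 FPKM for Tfeb, and had a log2 fold change of -0.06 (adjusted p 0.667). The lysosomal membrane proteins gave no call in edgeR, with 0 at an unadjusted p under 0.05 and 0 by the other 3 tests. Lamp1, whose promoter is printed above, was at 510.9, 508.3 and 487.5 CPM in Con and 501.0, 460.9 and 498.8 CPM in EX. These overlapped (log2 fold change -0.04, adjusted p 0.458). Lamp2, which carries the receptor of chaperone-mediated autophagy among its forms, had 0.02 (adjusted p 0.794).

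The size of the list of called members depended on the test. DESeq2, with a background of 5.91% of genes higher and 5.38% lower, called Map1lc3a higher and Optn and Pink1 lower. Limma on log2(FPKM + 0.1), which called 3.78% of genes higher and 9.53% lower, gave 1 higher member and 6 lower. It called Map1lc3a, Wipi1, Gabarapl1, Optn and Pink1 as edgeR did, added Bnip3 and Sqstm1, and did not call Ulk1 or Atg101. On log2(TPM + 0.1) the background was 3.12% higher and 15.5% lower, and the members gave 1 and 11. Both length-scaled units placed more members below 0 (33 on FPKM and 34 on TPM, against 22 in edgeR), and the median of all genes was also below 0 on them, at -0.06 and -0.09. When library totals without the 20 most abundant genes replaced TMM, 7.17% of all genes were higher and 11.5% lower, with 1 and 7 of the members. Leaving out EX replicate 3 lowered the count most, to 1 higher member (Map1lc3a) and 1 lower (Pink1).

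**Figure D4:**
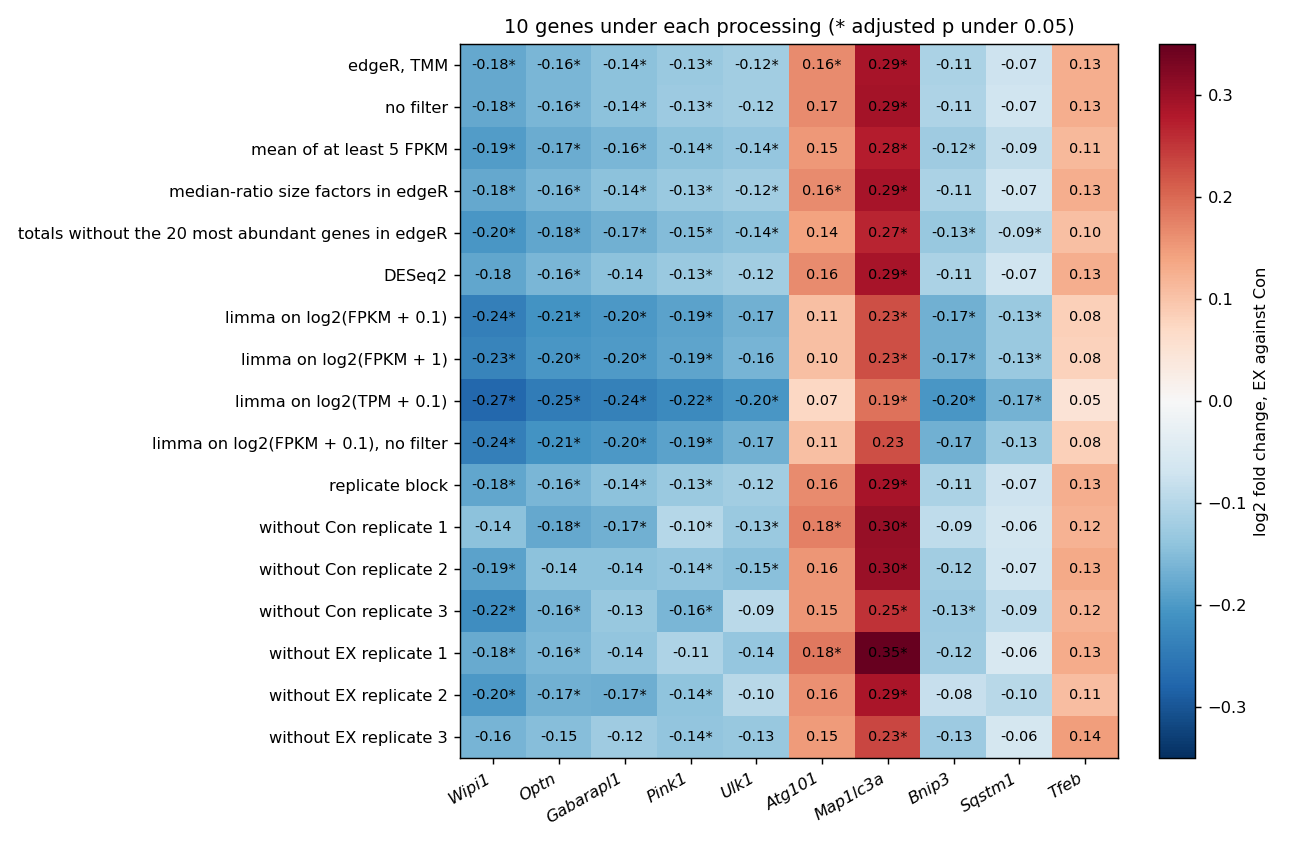
Log2 fold change (colour and number) of 10 genes, the 7 called and 3 near the threshold or abundant, under edgeR with TMM and 16 alternative settings, with a star where the adjusted p was under 0.05. Map1lc3a was starred in 15 of the 16 alternatives and Atg101 in 3, and no gene changed sign.

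Genes around the pathway were read from lists of the same kind. Of 28 tested genes for autophagosome formation and fusion outside the 41, 0 were higher in edgeR and 1 was lower. These were 0% and 3.57% of the list, against 9.11% and 8.8% of all tested genes. The higher count was 3 at an unadjusted p under 0.05, and 0 by DESeq2 or by limma on either unit. The lower gene was Epg5, a tether that brings autophagosomes to lysosomes. Epg5 fell from 66.9 ± 2.49 to 57.4 ± 0.710 CPM (log2 fold change -0.22, adjusted p 1.3e-03). Without 1 library this list had up to 2 higher (without Con replicate 1, and 1 without Con replicate 3 or EX replicate 2) and 2 lower (without EX replicate 1 or 3). The lower count was 2 in limma on FPKM, 3 with totals that left out the 20 most abundant genes and 6 in limma on TPM. Of 30 further cargo and mitophagy genes, 2 were higher and 2 lower (6.67% each way, against 9.11% and 8.8% of all tested genes). The lower count was 4 without Con replicate 1, and the higher count was 1 without EX replicate 3. By scaling, the higher and lower counts were 2 and 4 with totals that left out the 20 most abundant genes, 1 and 2 in limma on FPKM and 1 and 5 in limma on TPM. Stbd1, which binds glycogen and is thought to deliver it to lysosomes, was at 56.4, 58.2 and 59.4 CPM in Con and 79.5, 80.5 and 78.0 CPM in EX. All EX libraries lay above all Con libraries, with a log2 fold change of 0.45 (SE 0.05, adjusted p 3.2e-08). Fundc2, a homologue of Fundc1, rose by 0.16 in log2 although its ranges overlapped (166.4 to 183.0 CPM in Con, 181.7 to 211.8 in EX), while Wdfy3, a large adaptor for aggregates also called ALFY, was lower at -0.22.

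Of 40 tested upstream regulators, 6 were higher (15%, against 9.11% of all tested genes) and 3 lower (7.5%, against 8.8%). The balance depended on the scaling, with 5 higher and 5 lower when totals left out the 20 most abundant genes, 3 and 3 in limma on FPKM and 3 and 7 in limma on TPM. The lower count was 1 in DESeq2 and without EX replicate 1 or 3. Deptor, an inhibitory partner of mTOR, rose from 126.7 ± 3.77 to 164.3 ± 1.34 CPM (log2 fold change 0.37, adjusted p 7.6e-08). Prkag3, the AMPK gamma subunit of glycolytic muscle, rose from 159.8 ± 2.66 to 200.8 ± 5.07 CPM (0.33, adjusted p 3.8e-07), and Ddit4l, an mTORC1 inhibitor also called REDD2, from 330.6 ± 5.66 to 405.2 ± 5.55 CPM (0.29, adjusted p 5.0e-07). All 3 had EX libraries wholly above Con. The other higher genes were Prkab2 (0.21), an AMPK beta subunit, Flcn (0.20), which acts with the Rag GTPases on mTORC1, and Rheb (0.15), the GTPase that activates mTORC1, so activators and inhibitors of mTORC1 were both among the genes called. Lower were Bcl2 (-0.40) and Bcl2l1 (-0.29), which can hold Beclin 1 inactive, and Sesn1 (-0.18), a sestrin that restrains mTORC1. Mtor itself had -0.12 (adjusted p 0.0997) and did not pass.

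Downstream, lysosomal enzymes and channels were higher for 5 and lower for 1 of 41 tested, and V-ATPase subunits, which acidify the lysosome, for 3 and 1 of 18. These were 12.2% and 2.44% of the first list and 16.7% and 5.56% of the other, against 9.11% and 8.8% of all tested genes. The 5 became 2 without Con replicate 2 or 3, 3 without EX replicate 1 or 3 and 1 without EX replicate 2, and the 3 became 1 without Con replicate 2 or EX replicate 3. The 5 also became 2 without a filter, at a minimum of 5 FPKM, with totals that left out the 20 most abundant genes and under the replicate block. The lower V-ATPase call was lost in DESeq2 and without Con replicate 2 or 3 or EX replicate 1 or 2. Psap, the precursor of the saposins, rose from 1121 ± 17.7 to 1310 ± 18.7 CPM (log2 fold change 0.23, adjusted p 8.2e-06). The cysteine protease Ctsf (0.22) and the sialidase Neu1 (0.20) also passed as higher, and the cholesterol transporter Npc1 passed as lower (-0.19, adjusted p 9.5e-04). Among V-ATPase genes Atp6v0a1 (0.17), Atp6ap1 (0.17) and Atp6v0b (0.15) were higher and Atp6v1a (-0.18) was lower. The median log2 change was 0.05 for each of these 2 lists, -0.05 for the formation and fusion genes and 0.00 for the other 2, beside -0.02 for the 41 members and -0.00 for all tested genes. On the length-scaled units fewer genes were called higher, in these lists and over all genes. The background was 3.78% higher and 9.53% lower in limma on FPKM, and 3.12% and 15.5% on TPM. The lysosomal list had 1 higher and 2 lower in limma on FPKM and 1 and 3 on TPM, and the V-ATPase list had 0 and 1 on FPKM and 0 and 2 on TPM. DESeq2 gave 1 and 1 for the lysosomal list and 2 and 0 for the V-ATPase list, with 5.91% of all genes higher and 5.38% lower. Macrophages are rich in lysosomes and their markers were higher in EX (45.2 to 50.0 summed CPM in Con, 80.3 to 88.1 in EX), but their part in these values was not tested.

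**Figure D5:**
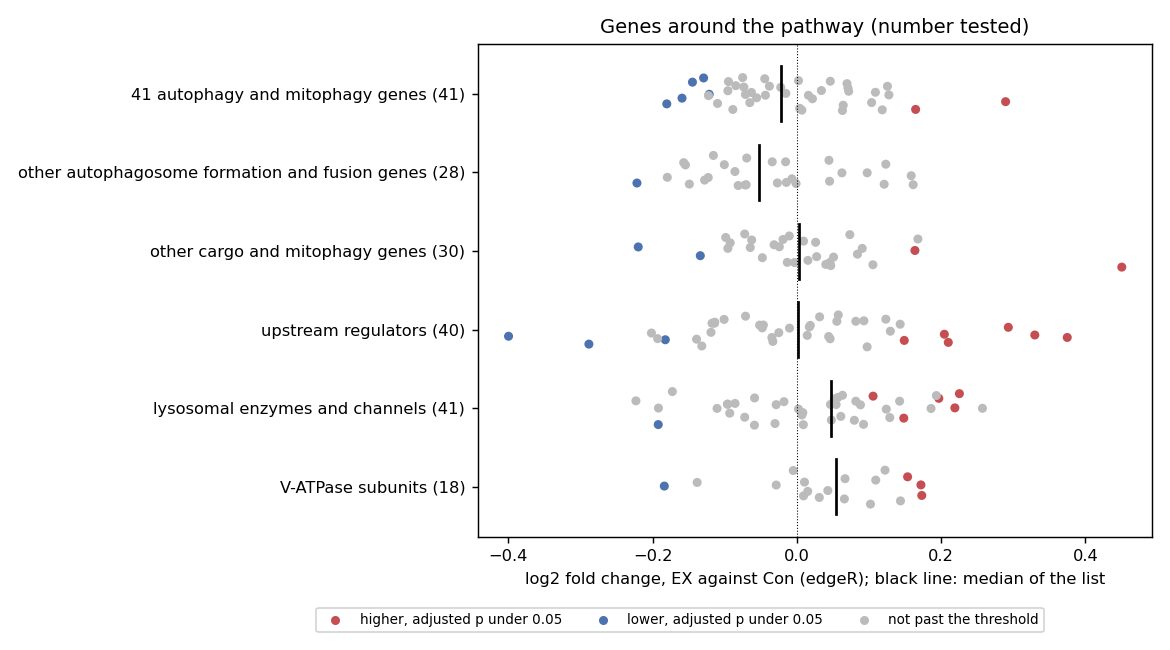
Log2 fold change (x axis, edgeR, EX against Con) of each tested gene in the 41 and in 5 lists around them (y axis), with the median of each list as a black line and called genes coloured. The 41 genes spanned -0.18 to 0.29, a narrower range than the upstream regulators, where Deptor reached 0.37 and Bcl2 lay at -0.40.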

How the data were processed

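RNA from 6 hind leg muscle samples was sequenced on DNBseq as paired reads of 150 bp. The authors aligned reads with HISAT to GRCm39 by their methods, while the submitters' processing notes name GRCm38.p6, cutadapt, featureCounts and MultiQC. Which build made the table is not settled, and strand is not given in the sources used here, so overlapping antisense genes cannot be told apart. The deposited table holds estimated counts, FPKM and TPM per gene and library, which the authors computed. It also holds 6 group mean columns, which were not used. Per library, 4.18% to 4.44% of the deposited counts were not whole. Of the members, only Pik3c3 had such counts.

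Estimated counts were rounded, and those averaging 1 FPKM or more were kept. EX was tested against Con with edgeR 4.0.16 in R 4.3.3 (TMM, glmQLFit, glmQLFTest), with Benjamini-Hochberg adjustment over all tested genes, a threshold of 0.05 and no limit on the fold change. DESeq2 1.42.0 and limma 3.58.1 (trend, on log2 of FPKM or TPM plus 0.1 or 1) were alternatives, as were filters, scalings and leaving out each library. CPM values were scaled by the TMM library sizes. Totals were 13845362 to 16240431 counts, for which a count of 0 allows up to 3 counts, or 0.188 to 0.214 CPM, for counting error only. No pair of replicates agreed within sampling noise. The labels do not say that libraries came from separate mice or batches, so p-values measure the spread between these samples.

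Members, lists and tests were chosen with earlier results of these data known. Named were all called members, the member with the highest FPKM of each role, and up to 3 increases and 3 decreases per surrounding list. Other named genes were chosen after their values were seen. Some genes of the surrounding lists are counted but not reported here by name. Promoters came from RefSeq, and for 31 of 34 members the 30 bases after the start were found in a transcript of that gene on the same strand, with 0 on the other.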

Additional observations from a re-analysis of the deposited data

How the results depend on the processing

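The 2 members higher in EX became 1 without a filter, with a minimum of 5 FPKM, with totals that left out the 20 most abundant genes, in DESeq2, in limma on FPKM with 0.1 or 1 added and on TPM, and under the replicate block, and 0 in limma on FPKM without a filter. The 5 lower members became 2 in DESeq2 and 11 in limma on TPM. Leaving out 1 library gave 1 to 2 higher and 1 to 4 lower. The members' median relative to all genes (-0.0214) was -0.0427 at 5 FPKM and -0.0376 in limma on FPKM without a filter, and it ran from -0.0351 to -0.0049 when 1 library was left out. The cause of these moves was not tested, except that leaving out a library lowers n and the limit of 5 FPKM leaves 38 members. Same-numbered libraries did not deviate together (correlations -0.104, -0.0762 and -0.192). With n = 3 per group this cannot show whether the numbers pair the samples, and the labels do not say. The block gave 1 higher and 4 lower members, with Ulk1 and Atg101 not called. None of the 7 called members changed sign in any setting, but 14 of the 41 did in at least 1. Up to 12 did so at once, on TPM, a unit on which the median of all genes was -0.09. With n = 3 per group and a biological coefficient of variation of 0.0328, the precision differs by gene and is given by each gene's interval.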
